A study of Mus musculus with 30 samples.

Results

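The posterior Hox genes followed here are Hoxa10, Hoxa11, Hoxa13, Hoxb13, Hoxd10, Hoxd11, Hoxd12 and Hoxd13. They were taken by gene name, 8 of the 46078 genes in the deposited count table. All 8 passed the filter on low counts, as did 16261 genes in all. RNA came from epithelial-layer scrapes of the colon of wild-type C57BL/6J mice that were 5 to 10 weeks old at the start. Female and male mice received 1 intraperitoneal injection of azoxymethane (AOM, a carcinogen, at 10 mg/kg) and then 3 cycles of 2.5% dextran sulfate sodium (DSS, which damages the colon epithelium) in the drinking water, and were killed at week 9 or 15. Vehicle mice were given saline in place of AOM, and their only time point was week 9, so at 15 weeks treatment and time cannot be told apart, and both AOM/DSS comparisons share the same vehicle libraries. There were 5 libraries in each of the 6 groups of sex and treatment, 30 in all. The labels give the tissue as colon and do not say which stretch of it was scraped.

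Hox genes encode homeodomain transcription factors that lie in 4 clusters, HoxA to HoxD, where the order of the genes along the chromosome follows the order in which they are used from head to tail. The posterior genes, at the 5' end of each cluster, mark the caudal body, including the hindgut and the anorectal region, and their levels differ along the length of the adult colon. Their protein products bind AT-rich DNA, and proteins of the Meis family are partners of many Hox proteins.

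The members lay in 3 clusters. Hoxa10 (ENSMUSG00000000938), Hoxa11 (ENSMUSG00000038210) and Hoxa13 (ENSMUSG00000038203) lie on the minus strand of chromosome 6 between 52231197 and 52260880 (GRCm38). Hoxb13 (ENSMUSG00000049604) lies on chromosome 11 from 96194316 to 96197447 on the plus strand. Hoxd13 (ENSMUSG00000001819), Hoxd12 (ENSMUSG00000001823), Hoxd11 (ENSMUSG00000042499) and Hoxd10 (ENSMUSG00000050368) follow each other on the plus strand of chromosome 2 between 74668310 and 74695105. The 4 HoxD genes moved together between libraries, so the 250 bases before a start site of each are shown, from the plus strand of RefSeq's GRCm38.p6. Capitals mark TTTAT or its complement ATAAA, the AT-rich core that posterior Hox and Cdx proteins share.

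Hoxd13, chr2:74667975-74668224: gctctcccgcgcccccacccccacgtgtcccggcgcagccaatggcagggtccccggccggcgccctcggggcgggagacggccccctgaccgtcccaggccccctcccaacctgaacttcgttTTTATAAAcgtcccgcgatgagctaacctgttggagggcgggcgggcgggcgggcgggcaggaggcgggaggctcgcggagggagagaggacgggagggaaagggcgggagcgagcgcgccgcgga
Hoxd12, chr2:74674763-74675012: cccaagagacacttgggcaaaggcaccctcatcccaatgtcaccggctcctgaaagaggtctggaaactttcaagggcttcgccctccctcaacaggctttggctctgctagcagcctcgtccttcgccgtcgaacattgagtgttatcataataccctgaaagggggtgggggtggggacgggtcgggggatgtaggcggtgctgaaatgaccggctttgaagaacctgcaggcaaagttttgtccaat
Hoxd11, chr2:74679308-74679557: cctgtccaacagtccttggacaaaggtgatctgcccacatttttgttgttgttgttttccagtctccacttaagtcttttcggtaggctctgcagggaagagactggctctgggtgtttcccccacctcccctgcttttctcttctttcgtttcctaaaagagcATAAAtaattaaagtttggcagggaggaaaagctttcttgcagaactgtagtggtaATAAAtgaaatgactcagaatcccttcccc
Hoxd10, chr2:74691641-74691890: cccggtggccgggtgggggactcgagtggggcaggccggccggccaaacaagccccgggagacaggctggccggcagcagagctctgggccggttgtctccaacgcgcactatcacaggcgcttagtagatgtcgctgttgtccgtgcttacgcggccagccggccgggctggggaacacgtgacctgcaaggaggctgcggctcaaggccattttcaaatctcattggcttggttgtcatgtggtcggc

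The core was present in the windows printed for Hoxd11 and Hoxd13. It was absent from those printed for Hoxd10 and Hoxd12 and from the other window of Hoxd11. It was found in 4 of the 9 windows of the 7 members in the table, where Hoxa10 and Hoxd11 each had a pair of start sites, and in 37.3% of 32851 mouse promoters of that length, both strands searched. In Hoxd13 it overlapped a TATAAA, which 12.4% of promoters held. The longer letters CCAATAAA and TTTATGG were in none of the 9 windows and in 1.02% and 2.43% of all promoters. These are matches of letters and no evidence of binding. GC content was 74.4% in the window of Hoxd13, 65.6% in that of Hoxd10, 55.6% in that of Hoxd12 and 44.8% in the printed one of Hoxd11, against a median of 52.4%.

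Counts on genes ran from 9265804 to 30806392 per library. Epithelial genes were high in every library, with summed levels of 10 colon epithelium genes between 14341 and 24309 CPM (counts scaled to each library's total). Such a sum over chosen genes does not give the share of a tissue. Male vehicle replicate 1 stood apart, with 6875 CPM summed over 10 smooth muscle genes beside 18605 CPM over the epithelium genes. It held 1534 CPM of the smooth muscle myosin Myh11, against at most 44.9 in the other 29 libraries. It also held 87.1 CPM of Krt13 and 38.7 CPM of Krt5, keratins of stratified squamous epithelium such as that of the anal canal, against at most 2.38 and 0.0736 elsewhere. Its Cdx2, an intestinal transcription factor, was 4.03 CPM, against at least 60.03 in the other libraries. In scraped tissue fewer cells of a type and less RNA per cell cannot be told apart.

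Per length, Hoxb13 had the highest level of the members. Its median level over the 30 libraries was 40.2 TPM (transcript abundance corrected for length and library size), followed by Hoxa10 at 11.1, Hoxa13 at 5.33, Hoxd13 at 1.65, Hoxa11 at 1.47, Hoxd10 at 0.0898, Hoxd11 at 0.0479 and Hoxd12 at 0 TPM. Hoxb13 was above Hoxa10 in 24 of 30 libraries and Hoxa10 above Hoxa13 in 30 of 30. The order of Hoxa10 and Hoxa13 held in TPM only. In CPM the median was 38.6 for Hoxa10 and 52.5 for Hoxa13, although Hoxa13 has fewer exonic bases (2472 against 3270). Why TPM and counts differ here was not tested. Hoxd13 and Hoxa11 did not separate, with Hoxd13 the higher in 15 of 30, and Hoxd10 was above Hoxd11 in 16 with 8 ties. Hoxb13 was above Hoxa10 in all 10 vehicle libraries, in 8 of 10 at 9 weeks and in 6 of 10 at 15 weeks. The spread within the members differed as much as their levels: over all libraries the highest CPM was 7.17 times the lowest for Hoxa10, 7.03 times for Hoxa13, 15.4 times for Hoxa11 and 72.8 times for Hoxb13, while each HoxD member ran down to 0.

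**Figure D1:**
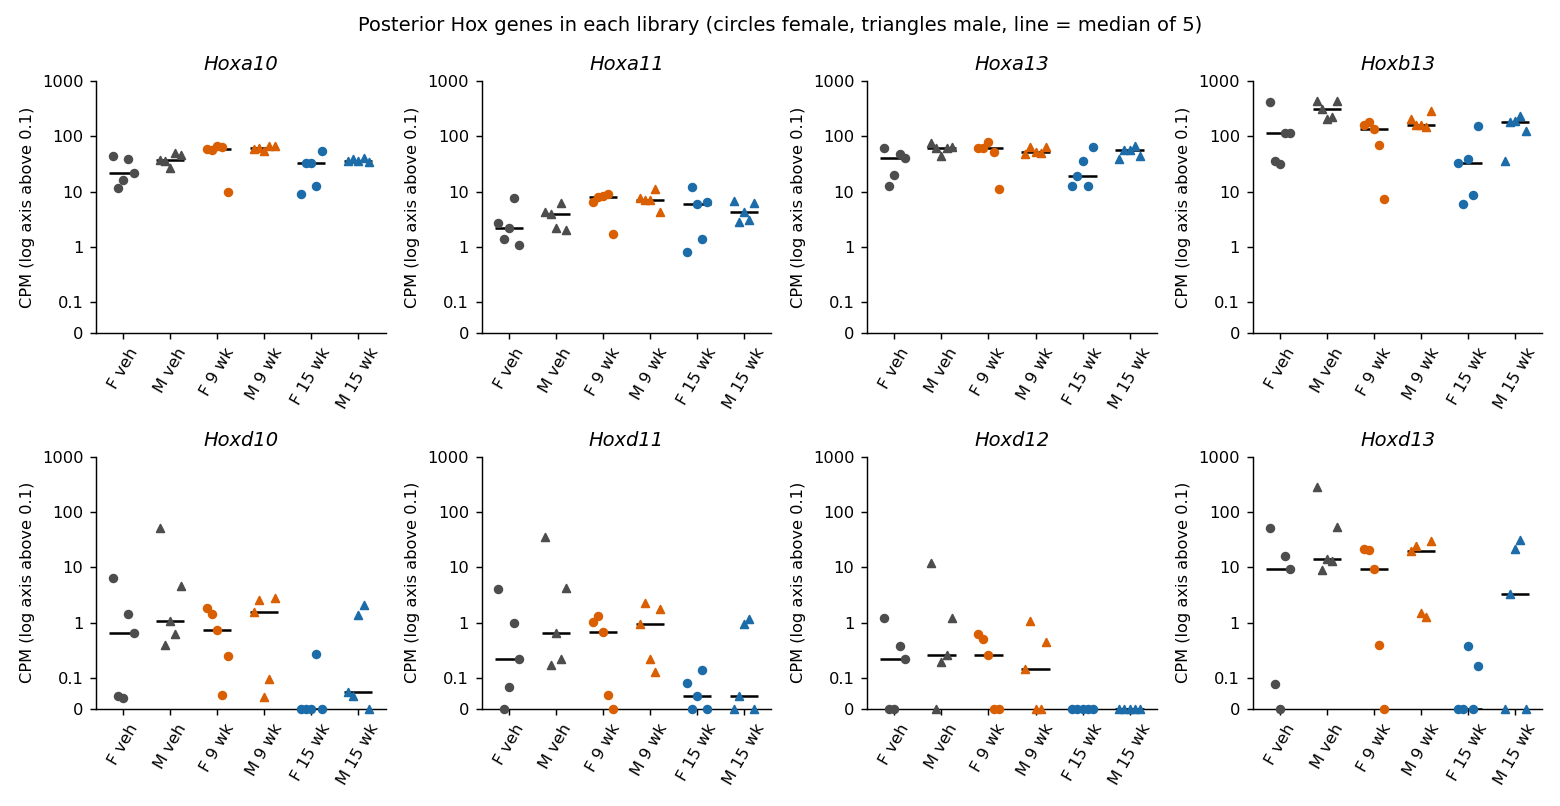
CPM of each member in each library (log axis above 0.1 CPM, linear down to 0), by group, with circles for females, triangles for males and a line at the median of the 5 libraries. Hoxb13 and Hoxd13 vary widely within groups, Hoxa10 lies highest at 9 weeks, and Hoxd12 is at 0 in all 10 libraries at 15 weeks.

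The paralogue group 13 genes, which stand at the posterior end of their clusters, came first. Hoxb13 measured 424, 35.8, 31.9, 113.5 and 113.8 CPM in female vehicle replicates 1 to 5, and 438, 309, 204, 219 and 430 CPM in the male vehicle libraries. At 9 weeks of AOM/DSS it measured 164, 185, 138, 70.2 and 7.404 CPM in females and 203, 161.2, 161.7, 145 and 290 CPM in males. At 15 weeks it measured 33.3, 6.02, 38.6, 8.81 and 156 CPM in females and 35.0, 185, 187, 238 and 126 CPM in males. All 5 male vehicle libraries were above 4 of the 5 female ones, the low libraries were mostly female, and vehicle, 9-week and 15-week libraries overlapped. Averaged over the sexes, the log2 fold change against vehicle was -0.56 (SE 0.50, edgeR adjusted p = 0.496) at 9 weeks and -1.25 (SE 0.50, edgeR adjusted p = 0.0787) at 15 weeks, neither past the threshold. The 15-week value depended on female replicate 5: without that library it was -1.78 (edgeR adjusted p = 0.0144), and over all 20 such fits it ran from -1.78 to -0.78 (edgeR adjusted p from 0.0144 to 0.251).

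Hoxd13 had a wider range. It measured 51.6, 0.0791, 0, 16.1 and 9.17 CPM in the female vehicle libraries and 282, 9.01, 14.0, 12.8 and 53.3 CPM in the male ones. At 9 weeks it measured 21.9, 20.5, 9.50, 0.398 and 0 CPM in females and 19.4, 24.3, 1.49, 1.27 and 29.3 CPM in males. At 15 weeks it measured 0, 0, 0.373, 0 and 0.161 CPM in females and 0, 3.30, 21.7, 31.4 and 0 CPM in males. The same female vehicle libraries that were low in Hoxb13, replicates 2 and 3, were at or near 0, and the highest value was that of male vehicle replicate 1. The log2 fold change was -1.43 (SE 0.94, edgeR adjusted p = 0.331) at 9 weeks and -4.82 (SE 1.25, edgeR adjusted p = 0.0116) at 15 weeks, so Hoxd13 fell at 15 weeks, with conditions that still overlapped. Without male vehicle replicate 1 the 9-week value was -0.57 and the 15-week value was -3.97 (edgeR adjusted p = 0.0331), and the call was kept in all 20 fits that left out 1 library.

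Hoxa13 was past the threshold at neither time. Its CPM ran from 12.9 to 74.4 in vehicle libraries (median 53.7), from 11.2 to 79.0 at 9 weeks (median 57.0) and from 12.5 to 67.0 at 15 weeks (median 41.5). Its log2 fold changes were 0.18 (SE 0.27, edgeR adjusted p = 0.712) at 9 weeks and -0.20 (SE 0.27, edgeR adjusted p = 0.626) at 15 weeks, with 95% intervals from -0.38 to 0.74 and from -0.76 to 0.36. The low libraries were again female vehicle replicates 2 and 3, female 9-week replicate 5 and female 15-week replicates 1, 2 and 4, while all male libraries lay between 39.3 and 74.4 CPM.

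The other HoxD members had lower levels. Hoxd10 measured 6.31, 0.0396, 0.0351, 1.41 and 0.648 CPM in female vehicle libraries and 52.0, 0.390, 1.06, 0.620 and 4.51 CPM in male ones. At 9 weeks it lay between 0.0363 and 2.74 CPM (median 1.07), and at 15 weeks it was at 0 in 5 of 10 libraries and reached 2.12 CPM. Its log2 fold change was -2.02 (SE 0.94, edgeR adjusted p = 0.149) at 9 weeks and -4.26 (SE 1.12, edgeR adjusted p = 0.0124) at 15 weeks. Hoxd11 followed it, with a highest value of 35.5 CPM in male vehicle replicate 1, medians of 0.432 CPM in vehicle, 0.823 CPM at 9 weeks and 0.0411 CPM at 15 weeks, and log2 fold changes of -1.88 (SE 0.92, edgeR adjusted p = 0.171) and -4.12 (SE 1.09, edgeR adjusted p = 0.0129). Both 15-week calls were lost without male vehicle replicate 1: Hoxd10 was then -2.86 (edgeR adjusted p = 0.0585) and Hoxd11 -2.80 (edgeR adjusted p = 0.0579), and the 9-week values shrank to -0.62 and -0.56. The vehicle mean was then also under the 1 FPKM that a call needs, at 0.691 FPKM for Hoxd10 and 0.415 FPKM for Hoxd11, against 2.83 and 1.70 FPKM with that library.

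Hoxd12 was detected in 7 of 10 vehicle libraries and 6 of 10 libraries at 9 weeks, and in 0 of 10 at 15 weeks. A count of 0 allows up to 3 counts per library, 0.130 CPM on average over the 15-week libraries, a limit for counting error alone. Against the vehicle mean of 1.52 CPM (SD 3.63, n = 10) Hoxd12 was at least 11.7-fold lower, and at least 2.95-fold lower without male vehicle replicate 1, which held 11.8 CPM. Against the 9-week mean of 0.304 CPM (SD 0.357, n = 10) it was at least 2.33-fold lower. Its mean level was under 1 FPKM (fragments scaled to transcript length and library size), so it was not called although its adjusted p was 0.00863 (edgeR). All 4 HoxD members were above 3 counts together in 6 of 10 vehicle libraries, 6 of 10 at 9 weeks and 0 of 10 at 15 weeks, and all 4 were at 3 counts or fewer in 2, 0 and 4 of 10.

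Hoxa10, which is used anterior to the group 13 genes, was higher at 9 weeks. It measured 43.9, 11.6, 16.4, 38.5 and 21.9 CPM in female vehicle libraries and 36.6, 35.6, 26.7, 49.6 and 45.4 CPM in male ones. At 9 weeks it measured 60.1, 55.8, 66.0, 62.9 and 9.95 CPM in females and 58.4, 62.0, 53.8, 65.7 and 65.7 CPM in males. In 9 of the 10 libraries at 9 weeks Hoxa10 was above every vehicle library, and female replicate 5 was below them all. The log2 fold change was 0.77 (SE 0.27, edgeR adjusted p = 0.0486), a rise of 1.71-fold that sat at the threshold and was called in 4 of the 20 fits that left out 1 library, with adjusted p from 0.0067 without female 9-week replicate 5 to 0.0876. It was 0.0682 without male vehicle replicate 1. At 15 weeks Hoxa10 ran from 9.21 to 55.0 CPM, and the log2 fold change was 0.10 (SE 0.27, edgeR adjusted p = 0.821).

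Hoxa11 had medians of 2.45 CPM in vehicle, 7.46 CPM at 9 weeks and 5.13 CPM at 15 weeks. Its log2 fold changes were 1.04 (SE 0.40, edgeR adjusted p = 0.0747) and 0.69 (SE 0.40, edgeR adjusted p = 0.224), neither past the threshold, and DESeq2 called the 9-week one (adjusted p = 0.0408). Hoxa11 shares 800 exonic bases, 35.0% of its own, with Hoxa11os, a noncoding transcript of the opposite strand. Hoxa11os was 7.63 to 75.7 times as high as Hoxa11 in CPM (median 15.7). The library kit keeps strand, but the strand setting of the counting is not given in the sources used here, so the share of Hoxa11 counts that belong to Hoxa11os is uncertain.

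A call needed an adjusted p below 0.05, a log2 fold change larger than 0.4 in either direction and a mean of 1 FPKM or more on 1 side. Averaged over the sexes, 1 of 8 members was called at 9 weeks against vehicle (Hoxa10, up), where 8.29% of all tested genes were called, and the members' median log2 fold change was -0.996 (-0.44 without male vehicle replicate 1) beside -0.02 for all tested genes. At 15 weeks 3 of 8 were called (Hoxd10, Hoxd11 and Hoxd13, down), where 7.35% of genes were called, and the medians were -2.69 (-1.998 without that library) and -0.03. The HoxD members lie side by side and moved together, so the 3 calls are not independent. Between 15 and 9 weeks 0 of 8 were called by edgeR and 0 by DESeq2, with 4 at an unadjusted p under 0.05 and 2.32% of all genes called, and Hoxd13 had the lowest value outside Hoxd12, at -3.39 (SE 1.25, edgeR adjusted p = 0.102). Of all 16261 tested genes, 3846 had an unadjusted edgeR p under 0.05 in that comparison.

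Within 1 sex no member was called by edgeR. In females the counts were 0 of 8 at 9 weeks, where 2.90% of genes were called and 1 member had an unadjusted p under 0.05, and 0 of 8 at 15 weeks, where 0.0984% of genes were called and 5 members had an unadjusted p under 0.05. In males they were 0 of 8 at 9 weeks (7.31% of genes, 2 members at an unadjusted p under 0.05) and 0 of 8 at 15 weeks (8.92% of genes, 3 members). Of all 16261 tested genes, 2796 at 9 weeks and 1776 at 15 weeks had an unadjusted edgeR p under 0.05 in females. In males these were 4127 and 5114 genes. DESeq2 called 0 in females and 0 in males at 9 weeks, 1 in females at 15 weeks (Hoxd13, DESeq2 adjusted p = 0.0131) and 1 in males at 15 weeks (Hoxd11, DESeq2 adjusted p = 0.0420). For Hoxb13 the 15-week value was -1.59 (SE 0.72, edgeR adjusted p = 0.422) in females and -0.92 (SE 0.70, edgeR adjusted p = 0.389) in males.

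Males were then compared with females in each condition. In vehicle mice edgeR called 0 of 8 (0.178% of all genes, 1 member at an unadjusted p under 0.05) and DESeq2 0. At 9 weeks edgeR called 0 (0.0492% of genes, 0 at an unadjusted p under 0.05) and DESeq2 0, and at 15 weeks edgeR called 0 (0.184% of genes, 3 at an unadjusted p under 0.05) and DESeq2 1, Hoxd13. Of all 16261 tested genes, 3035 in vehicle, 630 at 9 weeks and 2009 at 15 weeks had an unadjusted edgeR p under 0.05. Hoxb13 was 1.07 (SE 0.71, edgeR adjusted p = 0.437) on the log2 scale in male over female vehicle mice and 1.74 (SE 0.72, edgeR adjusted p = 0.309) at 15 weeks. The test of whether the response itself differed between the sexes called 0 members at 9 weeks (0% of genes) and 0 at 15 weeks (0% of genes) by edgeR, 0 and 0 by DESeq2, and 0 and 0 at an unadjusted p under 0.05. In that test 1205 and 1245 of all 16261 tested genes had an unadjusted edgeR p under 0.05.

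The spread of the members within groups was then set beside markers of colon region, since the sampled stretch is not in the labels. The distal score was the mean log2 CPM of Insl5, Atp12a, Scnn1b, Scnn1g and Fxyd4, 5 of the 7 listed distal genes (Prac1 and Prac2 were not analysed here). They encode a peptide hormone of distal colon cells, a proton pump, sodium channel subunits and an ion transport regulator. The proximal score used all 7 genes of its list, such as Ang4, an antimicrobial peptide, and Aqp4, a water channel. Neither holds a Hox gene. Summed levels of the distal genes ran from 54.2 to 1436 CPM in vehicle, from 17.8 to 470 CPM at 9 weeks and from 21.6 to 585 CPM at 15 weeks, and the conditions overlapped. Those of the proximal genes ran from 487 CPM (male vehicle replicate 1, with 1082 the next) to 2265 CPM, 1413 to 1933 CPM and 1267 to 2856 CPM.

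Regional scores differed between some conditions. The distal score was lower at 15 weeks than in vehicle by 2.02 on the log2 scale (2-sided permutation test, p = 0.00916, adjusted p = 0.0391 over 81 score comparisons), a call kept in 7 of 20 repeats without 1 library and lost without male vehicle replicate 1 (-1.81, permutation adjusted p = 0.0620). In males it was lower at 9 weeks by 1.66 and at 15 weeks by 2.35 (exact permutation tests, each p = 0.00794, the smallest that 5 against 5 allows, adjusted p = 0.0357). In females the differences were -0.31 (exact permutation adjusted p = 0.835) and -1.69 (exact permutation adjusted p = 0.257). The proximal score was 1.04 higher at 15 weeks than in vehicle (permutation adjusted p = 0.0665) and 0.59 higher than at 9 weeks (permutation adjusted p = 0.0317). Of the cell type scores, mesenchyme was 1.72 lower at 15 than at 9 weeks (permutation adjusted p = 0.0196), smooth muscle 1.77 lower (permutation adjusted p = 0.0357, kept in 15 of 20 repeats without 1 library), endothelium 1.89 lower (permutation adjusted p = 0.0196), enteric neurons and glia 0.70 lower (permutation adjusted p = 0.0317), and leukocytes 1.92 higher at 9 weeks than in vehicle (permutation adjusted p = 0.00567).

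The 30 libraries were taken as deviations from their group means, so that differences between the group means could not create a relation. Differences between mice of the same group, treated groups included, remain in these deviations. Hoxb13 followed the distal score (Pearson r = 0.94, Spearman rho = 0.87, each with permutation adjusted p = 7.99992e-05, the smallest that 100000 permutations within groups gave after adjustment over 40 member-by-score relations). Without the 2 libraries farthest from the median distal score r was 0.91. Hoxa13 gave r = 0.84 and rho = 0.87 (permutation adjusted p = 0.000618 and 0.000114; r = 0.82 without 2 libraries) and Hoxd13 r = 0.81 and rho = 0.82 (permutation adjusted p = 7.99992e-05 for each, and r = 0.81 without 2 libraries). Hoxa10 gave r = 0.64 and rho = 0.53 (permutation adjusted p = 0.0233 and 0.0382, and r = 0.65 without 2 libraries). Hoxd10, Hoxd11 and Hoxd12 followed the distal score too (r = 0.53, 0.60 and 0.53). Their rho was 0.60, 0.64 and 0.60 (permutation adjusted p at most 0.00631 for r and rho). Without 2 libraries their r was 0.57, 0.57 and 0.52. Low counts limit these values and those of the same genes with the other scores. Hoxd12 was at 0 in 17 of 30 libraries, and at 15 weeks Hoxd10 and Hoxd11 were each above 3 counts in 3 of 10. Hoxa11 did not follow the distal score (r = 0.15, rho = 0.20, permutation adjusted p = 0.573 and 0.416, and r = 0.17 without 2 libraries).

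The HoxD members followed the proximal score downward. Hoxd11 gave r = -0.84 and rho = -0.85 (permutation adjusted p = 0.000171 and 0.00015, and r = -0.81 without the 2 libraries farthest from the median, male vehicle replicates 1 and 5). Hoxd12 gave r = -0.83 and rho = -0.77 (permutation adjusted p = 7.99992e-05 and 0.000114, and r = -0.74 without those libraries) and Hoxd10 r = -0.77 and rho = -0.77 (permutation adjusted p = 0.0002 and 0.000356, and r = -0.74). Hoxd13 gave r = -0.62 and rho = -0.81 (permutation adjusted p = 7.99992e-05 for each, and r = -0.70). Hoxb13 gave r = -0.45 and rho = -0.73 (permutation adjusted p = 7.99992e-05 for each, and r = -0.56). For Hoxa13 r was -0.39 and rho -0.68 (permutation adjusted p = 0.000133 and 7.99992e-05, and r = -0.49). For Hoxa10 r was -0.26 and rho -0.50 (permutation adjusted p = 0.0543 and 0.00748, and r = -0.39), and for Hoxa11 r was -0.02 (permutation adjusted p = 0.927). Against smooth muscle genes, the mark of male vehicle replicate 1, Hoxb13 gave r = 0.23 and rho = 0.25 (permutation adjusted p = 0.194 and 0.2501, and r = 0.29 without 2 libraries), and Hoxd12 was the member past the threshold by r (r = 0.58, rho = 0.41, permutation adjusted p = 0.0240 and 0.0606, and r = 0.40 without 2 libraries).

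Mesenchyme and epithelium genes also followed some members. Against the mesenchyme score Hoxb13 gave r = 0.45 and rho = 0.37 (permutation adjusted p = 0.0328 and 0.0919, and r = 0.53 without 2 libraries) and Hoxd12 gave r = 0.58 and rho = 0.49 (permutation adjusted p = 0.00631 and 0.0187, and r = 0.51). Hoxa10 gave r = 0.48 and rho = 0.41 (permutation adjusted p = 0.0152 and 0.0436, and r = 0.57) and Hoxa13 r = 0.46 and rho = 0.37 (permutation adjusted p = 0.0211 and 0.0720, and r = 0.53). Against the colon epithelium score Hoxb13 gave r = -0.46 and rho = -0.56 (permutation adjusted p = 0.0449 and 0.0127, and r = -0.41 without 2 libraries) and Hoxd13 r = -0.60 and rho = -0.55 (permutation adjusted p = 0.0132 and 0.0211, and r = -0.58). The epithelium score was 0.21 higher at 9 weeks and 0.26 higher at 15 weeks than in vehicle (permutation adjusted p = 0.0196 and 0.0317). The part of mesenchyme in the members' differences was not tested beyond the fits with its score as covariate. No fit carried the epithelium score, so the part of epithelium was not tested.

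The same relation within each condition is given as a description over its 10 libraries, centred by sex, which also share any effect of depth and base composition. Hoxb13 and the distal minus proximal score had r = 0.81 in vehicle, 0.97 at 9 weeks and 0.92 at 15 weeks, Hoxd13 had 0.91, 0.88 and 0.75, and Hoxa13 had 0.70, 0.93 and 0.74. Hoxa11 had 0.11, 0.59 and -0.12. Hoxa10 had 0.55, 0.89 and 0.35, Hoxd10 had 0.97, 0.51 and 0.40, and Hoxd11 had 0.92, 0.81 and 0.50. At 15 weeks Hoxd10 and Hoxd11 were each above 3 counts in 3 of 10 libraries and Hoxd13 in 5 of 10. Hoxd12 had 0.96 and 0.68 with no value at 15 weeks. Without male vehicle replicate 1 the vehicle value was 0.93 for Hoxb13, 0.94 for Hoxd13, 0.80 for Hoxa13, 0.96 for Hoxd10, 0.87 for Hoxd11, 0.94 for Hoxd12, 0.77 for Hoxa10 and 0.04 for Hoxa11 (9 libraries). In the vehicle libraries, from mice without AOM or DSS, the region score itself ran from -5.61 to 4.26, or to 1.26 without male vehicle replicate 1.

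**Figure D2:**
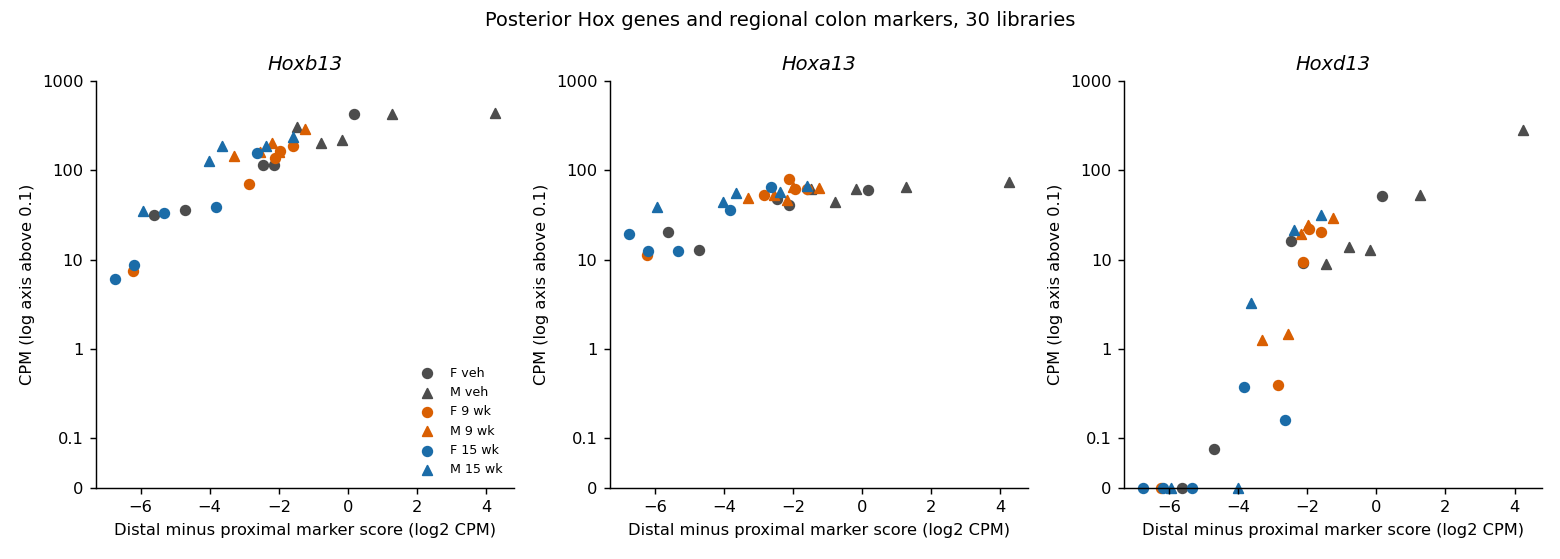
CPM of Hoxb13, Hoxa13 and Hoxd13 (log axis above 0.1 CPM) against the distal minus proximal marker score (difference of mean log2 CPM) in each of the 30 libraries, coloured by condition. For Hoxb13, libraries of all conditions fall along one rising band, from 6.02 CPM at a score of -6.74 to 438 CPM in male vehicle replicate 1 at 4.26. Hoxa13 spans a narrower range, from 11.2 to 79.0 CPM. Hoxd13 scatters more. At 15 weeks it was at most 0.373 CPM in females, at scores up to -2.63, and reached 31.4 CPM in males, at scores up to -1.60.

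A fit that carried the region score as a covariate changed the members' values. At 15 weeks against vehicle Hoxd10 went from -4.26 to 0.38 (edgeR adjusted p = 0.903), Hoxd11 from -4.12 to 0.92 (edgeR adjusted p = 0.649), Hoxd13 from -4.82 to -0.60 (edgeR adjusted p = 0.789) and Hoxb13 from -1.25 to 0.42 (edgeR adjusted p = 0.523), and 0 members were called. Hoxd12, at 0 in every 15-week library, went from -7.57 to -2.64 (edgeR adjusted p = 0.249). At 9 weeks Hoxa10 went from 0.77 to 1.02 (edgeR adjusted p = 0.00341) and Hoxa13 from 0.18 to 0.55 (edgeR adjusted p = 0.0408), and both were called. With the mesenchyme score in place of the region score the 15-week values were -1.49 for Hoxd10, -1.21 for Hoxd11, -2.49 for Hoxd13 and -0.42 for Hoxb13, and 0 members were called at either time. Hoxd12 was then -5.22 (edgeR adjusted p = 0.0508). Without male vehicle replicate 1 the region-score fit gave 0.28 for Hoxd10, 0.97 for Hoxd11, -0.19 for Hoxd13 and 0.50 for Hoxb13 at 15 weeks, with 0 members called, and called Hoxa10 and Hoxa13 at 9 weeks. Over all tested genes the count at 9 weeks went from 1348 to 1788 with the region score and to 1422 with the mesenchyme score, at 15 weeks from 1195 to 460 and to 848, and between 15 and 9 weeks from 378 to 0 with either. Because the regional markers differed between conditions too, the stretch of colon sampled and a change of regional gene expression under AOM/DSS cannot be told apart in these data.

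**Figure D3:**
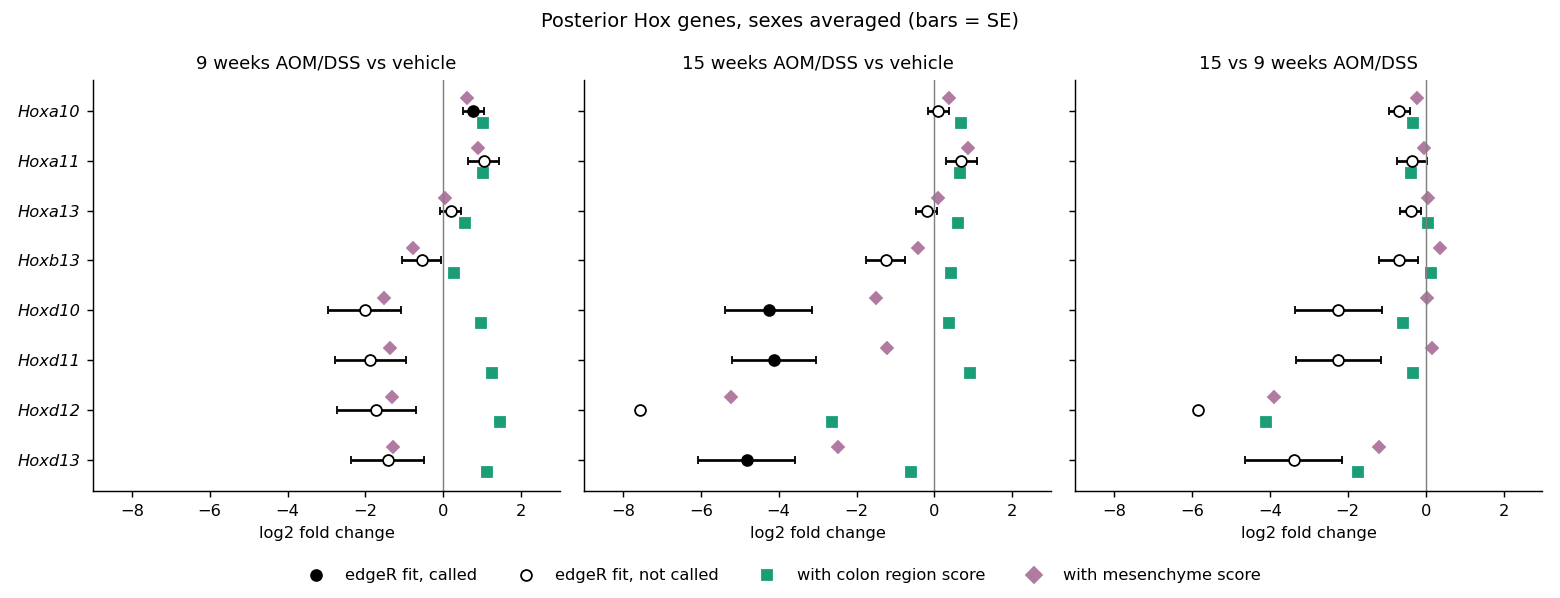
Log2 fold change of each member in the 3 comparisons averaged over the sexes, from the edgeR fit (circles, bars of 1 SE, filled where called, no bar for Hoxd12 where all 15-week libraries were 0) and with a region score (green squares) or a mesenchyme score (purple diamonds) as covariate. With the region score the 15-week values of Hoxd10, Hoxd11 and Hoxb13 pass 0, that of Hoxd13 shrinks to -0.60 and that of Hoxd12 to -2.64.

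The other Hox genes placed the members in their clusters. The table held 39 Hox genes, of which 28 were tested, 11 in HoxA, 9 in HoxB, 8 in HoxD and none in HoxC. The HoxC genes of groups 9 to 13 were near absent, with at most 0.121 CPM in any library, and Hoxc12 and Hoxc13 were at 0 in all 30. This relation was examined after the values were seen: Hoxb13 was set against each of the 27 other tested Hox genes, again as deviations from group means. All 8 other HoxB genes ran opposite to it by r, from -0.75 (Hoxb7, rho = -0.76, permutation adjusted p = 3.37497e-05 for each, the smallest the permutations gave, and r = -0.74 without 2 libraries) to -0.53 (Hoxb2, rho = -0.35, permutation adjusted p = 0.0156 and 0.124, and r = -0.45 without 2 libraries). In HoxD the sign turned along the cluster. Hoxd3, Hoxd4 and Hoxd8 ran opposite to it (r = -0.74, -0.70 and -0.67, rho = -0.69, -0.73 and -0.66, permutation adjusted p at most 0.000243, and r = -0.69, -0.71 and -0.67 without 2 libraries), Hoxd9 had r = 0.02 and rho = 0.09 (permutation adjusted p = 0.942 and 0.714), and Hoxd10 to Hoxd13 ran with it (r from 0.43 to 0.74, rho from 0.56 to 0.78, permutation adjusted p at most 0.0124, and r from 0.46 to 0.73 without 2 libraries). In HoxA, Hoxa6, Hoxa10 and Hoxa13 ran with it (r = 0.73, 0.64 and 0.83, rho = 0.64, 0.47 and 0.78, permutation adjusted p at most 0.0444, and r = 0.73, 0.64 and 0.81 without 2 libraries), none ran opposite past the threshold, and Hoxa11 had r = 0.12 and rho = 0.04 (permutation adjusted p = 0.714 and 0.864).

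**Figure D4:**
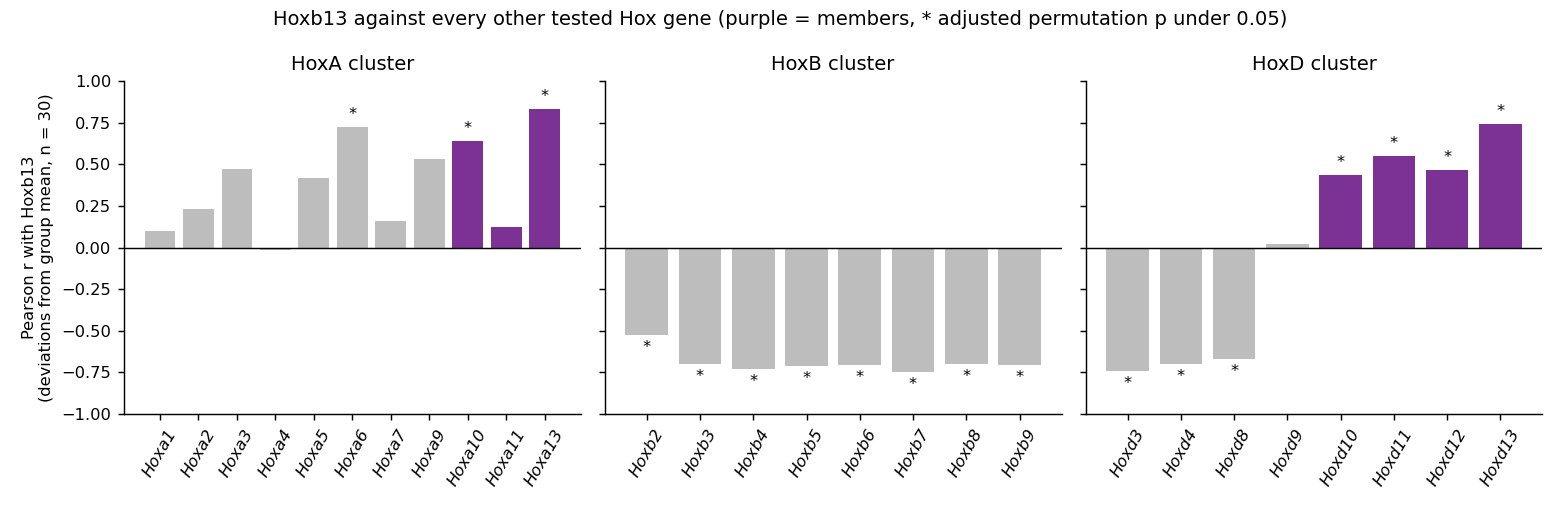
Pearson r of Hoxb13 with each of the 27 other tested Hox genes over 30 libraries (log2 CPM as deviations from group means), in order along the HoxA, HoxB and HoxD clusters, with members in purple and stars for an adjusted permutation p under 0.05. Bars are negative throughout HoxB and for Hoxd3, Hoxd4 and Hoxd8, and positive for Hoxd10 to Hoxd13.

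**Figure D5:**
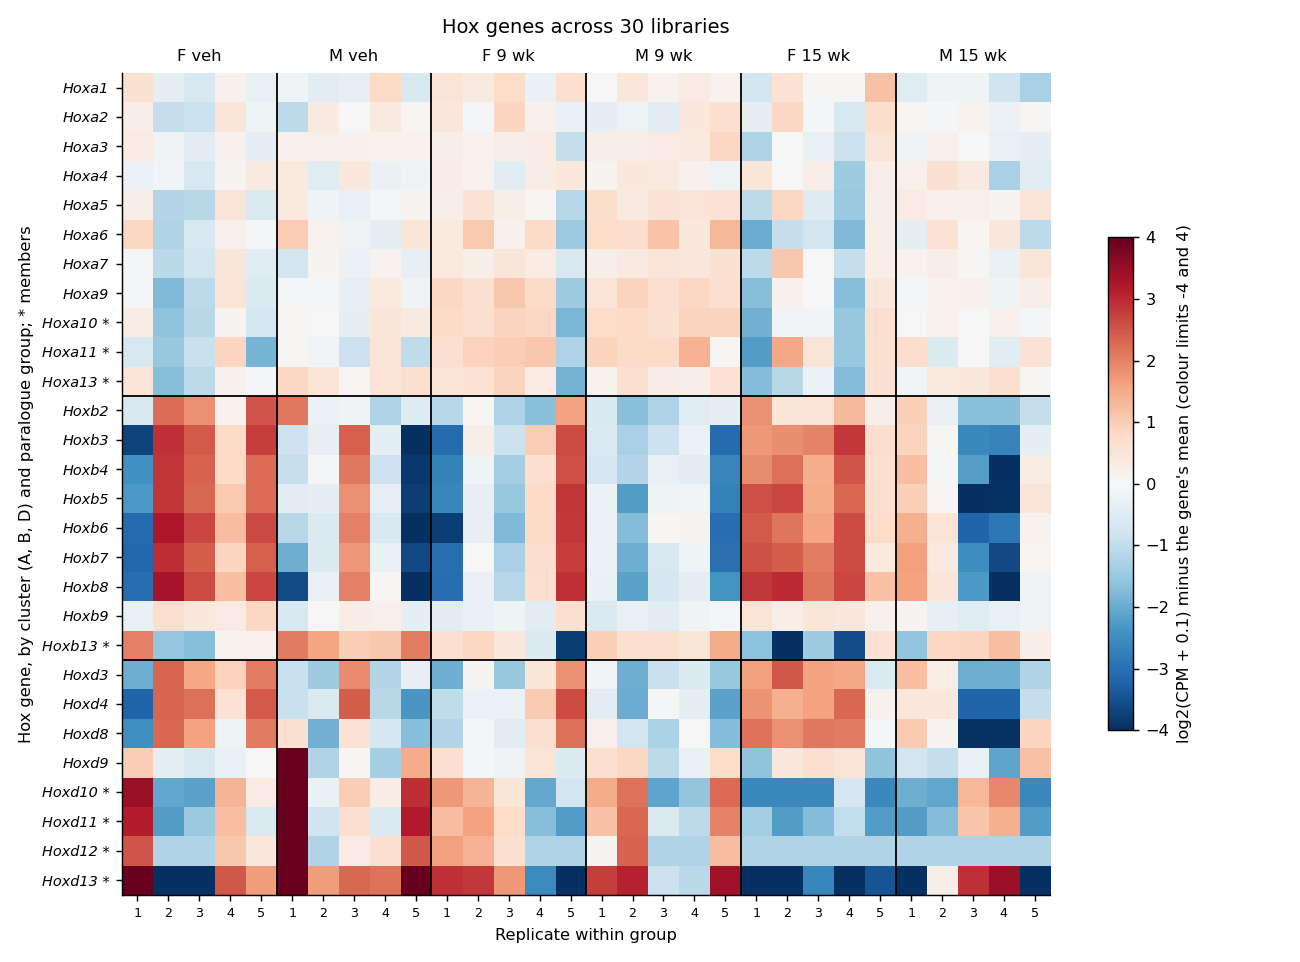
Log2(CPM + 0.1) of the 28 tested Hox genes minus each gene's mean over the 30 libraries, in cluster order (rows, members with a star) and by group and replicate (columns). Libraries low in Hoxb13 and the HoxD members, such as female vehicle replicate 2 and female 9-week replicate 5, are among the highest in Hoxb3 to Hoxb9 and in Hoxd4 and Hoxd8.

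The related lists had few calls. Of the other posterior Hox genes, 3 of 8 were tested, and Hoxa9, the neighbour of Hoxa10, rose at 9 weeks by 0.81 (SE 0.27, edgeR adjusted p = 0.0381). Of the anterior and central Hox genes 17 of 23 were tested and edgeR called 0 at 9 and 0 at 15 weeks, with 2 and 1 at an unadjusted p under 0.05. Their median log2 fold change was -0.95 at 9 weeks and 0.01 at 15 weeks against vehicle, and 0.90 between 15 and 9 weeks. Among 7 Hox cofactors, Meis3 fell at 9 weeks by 0.92 on the log2 scale (SE 0.18, edgeR adjusted p = 0.000708). In males at 9 weeks Meis3 was -1.16 (SE 0.26, edgeR adjusted p = 0.00489), and in males at 15 weeks Meis3 was -0.78 (SE 0.26, edgeR adjusted p = 0.0407). Of 6 tested Hox cluster noncoding RNAs and 7 tested gut patterning factors, Cdx1 and Cdx2 among them, edgeR called 0 at 9 weeks, with 1 and 2 at an unadjusted p under 0.05, and 0 at 15 weeks, with 0 and 3. DESeq2 called 2 genes over these lists at 9 weeks and 0 at 15 weeks. Of all 16261 tested genes, 4720 at 9 weeks and 5559 at 15 weeks had an unadjusted edgeR p under 0.05.

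The 5 genes outside the members that followed each one most closely, of 11934 compared as deviations from group means over the 30 libraries, are given as a description. For Hoxa10 they were Hoxa9 (r = 0.95), Rasd2, 9530018H14Rik, Gne and Foxa2 (r = 0.89), and for Hoxa11 they were Hoxa9 (r = 0.84), Hoxa7, Mmp14, Trim35 and Ecscr (r = 0.79). For Hoxa13 they were 9530018H14Rik (r = 0.97), Piezo2, Hottip, Tmprss2 and Anxa3 (r = 0.93), where Hottip is the noncoding transcript beside Hoxa13. For Hoxb13 they were Ly6g (r = 0.97), AI854703, Clic6, Thbs4 and Cyp2f2 (r = 0.95). The HoxA members thus had genes of their own cluster among the 5, and Hoxb13 did not. For the HoxD members the comparison could not show this. The members were left out of the genes compared, and Hoxd3, Hoxd4, Hoxd8 and Hoxd9 had a mean log2 CPM under 1, so they were left out too. Among themselves the HoxD members had r from 0.69 (Hoxd12 and Hoxd13) to 0.95 (Hoxd10 and Hoxd11). For Hoxd13 they were Acpp (r = 0.92), Slc25a36, Pias2, Npy1r and Lrrc31 (r = 0.90). For Hoxd11 they were Ak3 (r = 0.88), Pdcd4, Pla2g10os, Rffl and Slc36a1 (r = 0.83). For Hoxd10 they were Pdcd4 (r = 0.82), Slc36a1, Pla2g10os, Ak3 and Eef2k (r = 0.80). For Hoxd12 they were Scel (r = 0.81), Fmo2, Tdrd3, Itpkb and Ahnak2 (r = 0.76).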

How the data were processed

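Per the labels and the study's methods, poly(A)-selected stranded libraries of colon scrapes were aligned by the authors to mm10 with STAR after trimming with Trim Galore, and the deposited raw counts per gene, without normalization, were made with featureCounts. FPKM and TPM were deposited in 1 file per library, estimated by the authors with StringTie, and a gene listed on several lines had its lines added. Versions of these tools, and the strand setting of the counting, are not given in the sources used here. No removal of duplicate reads is stated, so limits from a count of 0 cover counting error only.

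Counts were tested with edgeR 4.0.16 in R 4.3.3 (filterByExpr, TMM factors 0.832 to 1.10, quasi-likelihood F-test, 1 coefficient per group over all 30 libraries, Benjamini-Hochberg over 16261 genes) and, as an alternative, with DESeq2 1.42.0. Log2 CPM used a prior count of 2, and marker scores average it over the genes of a list. Scores were compared by 2-sided permutation tests, exact within a sex and with 100000 resamples otherwise, and correlated with the members by permuting libraries within groups. Groups came from the labels, each with 5 biological replicates, and p-values measure the spread between these samples. The members and the lists were chosen with earlier results of these data known. Every member is reported. The named list genes are those called, and a few genes of the lists are not reported here by name, and the 5 closest genes by r were taken for each member among genes with a mean log2 CPM of at least 1. The scripts were tested on simulated data. Alternatives were other normalization, filters, libraries left out, a replicate block, 2 covariates and TPM. Gene positions were compared with the deposited ones, which are on GRCm38, the build of the promoter windows.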

Additional observations from a re-analysis of the deposited data

Results flagged for a closer look

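In groups of 5 libraries, a value was marked when its gap to the nearest of the others was more than 0.71 of the group's range, Dixon's critical value. Of 100 groups examined 16 were marked, 11 of them for the posterior Hox genes, and chance marks about 1 in 20 groups of independent, normally distributed values. CPM values are skewed with many at 0, and the HoxD genes vary together, so that rate may not hold here.

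Male vehicle replicate 1 was marked high for Hoxd10 (52.0 CPM), Hoxd11 (35.5 CPM), Hoxd12 (11.8 CPM), Hoxd13 (282 CPM), the smooth muscle score (8.70, log2 CPM) and the squamous epithelium score (5.35, log2 CPM). Whether these genes were higher because other tissue was scraped along was not tested. The squamous score used 3 of its 8 listed genes, since Krt5, Krt4, Krt6a, Trp63 and Dsg3 did not pass the filter on low counts. Female vehicle replicate 1 was marked high for Hoxb13 (424 CPM), Hoxd10 (6.31 CPM), Hoxd11 (4.09 CPM) and the mesenchyme score (3.74, log2 CPM). Female 9-week replicate 5 was marked low for Hoxa10 (9.95 CPM), the distal colon score (0.35, log2 CPM) and the mesenchyme score (1.77, log2 CPM). The other marked values were Hoxa11 in female vehicle replicate 4 (7.71 CPM), Hoxb13 in female 15-week replicate 5 (156 CPM) and Hoxd10 in female 15-week replicate 4 (0.273 CPM, the one library of that group above 0).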

How the results depend on the processing

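The number of members called moved with the settings. At 9 weeks (1 called, sexes averaged) it was 0 with no filter on low counts or the mesenchyme score, and 2 with the compared groups alone, the region score, DESeq2 or both doubtful libraries left out (male vehicle replicate 1 and female 9-week replicate 5, chosen after seeing the data). At 15 weeks (3 called) it was 0 with the mesenchyme or region score and 1 with both libraries out. Between 15 and 9 weeks it was 2 with both out, and in females at 9 weeks 1. It was 1 by DESeq2 in females and males at 15 weeks and between the sexes at 15 weeks, 1 in males at 15 weeks with no FPKM minimum, and 1 with the compared groups alone and 2 with the region score in males at 9 weeks. Leaving out 1 library gave 0 to 2 at 9 weeks, 1 to 4 at 15 weeks, 0 to 2 between them, 0 to 1 in females at 9 weeks, 0 to 2 in males at 15 weeks and 0 in each of the other 7 comparisons. The related lists gave 2 at 15 weeks and 2 in males at 9 weeks with no FPKM minimum, 1 between 15 and 9 weeks and 5 in males at 9 weeks with the compared groups alone, 1 by DESeq2 between 15 and 9 weeks and between the sexes at 15 weeks, and 0 in males at 15 weeks with no filter or the compared groups alone. Score comparisons past the threshold numbered 19 of 81, 17 with a prior count of 0.5, and 15 to 26 with 1 library left out. Member-by-score correlations past it numbered 20 of 40, 25 in TPM and 23 without centring.

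Replicate numbers did not pair the libraries: deviations of same-numbered libraries had a median r of -0.026 (from -0.581 to 0.467 over 75 pairs). With a replicate block the members called were 0 at 9 weeks and 0 at 15 weeks, where Hoxd13 was -3.91 (edgeR adjusted p = 0.0591).

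Directions turned mainly with a covariate. With the region score the log2 fold changes turned to 0.27 (Hoxb13), 0.95 (Hoxd10), 1.24 (Hoxd11), 1.45 (Hoxd12) and 1.12 (Hoxd13) at 9 weeks, to 0.61 (Hoxa13), 0.42 (Hoxb13), 0.38 (Hoxd10) and 0.92 (Hoxd11) at 15 weeks, to 0.0644 (Hoxa13) and 0.15 (Hoxb13) between 15 and 9 weeks, and in males at 15 weeks to 1.20 (Hoxb13) and 2.68 (Hoxd13). With the mesenchyme score they turned to 0.10 (Hoxa13) at 15 weeks, to 0.0651 (Hoxa13), 0.36 (Hoxb13), 0.0355 (Hoxd10) and 0.17 (Hoxd11) between 15 and 9 weeks, and in males at 15 weeks to 0.58 (Hoxb13) and 1.58 (Hoxd13). With 1 library left out the 15-week value of Hoxa10 lay between -0.0536, where female 15-week replicate 5 was dropped, and 0.223. The r of Hoxa10 with the epithelium score turned to 0.0568 and of Hoxa11 with the proximal score to 0.00928 without centring. Without male vehicle replicate 1 (chosen after seeing the data) the region score gave 2 members called at 9 weeks and 0 at 15 weeks, and the mesenchyme score 0 and 0. There the region score turned values to 0.20 (Hoxb13), 0.94 (Hoxd10), 1.23 (Hoxd11), 1.53 (Hoxd12) and 1.17 (Hoxd13) at 9 weeks, to 0.67 (Hoxa13), 0.50 (Hoxb13), 0.28 (Hoxd10) and 0.97 (Hoxd11) at 15 weeks and to 0.15 (Hoxa13) and 0.30 (Hoxb13) between 15 and 9 weeks. The mesenchyme score turned Hoxa13 to -0.0262 at 9 weeks and 0.10 at 15 weeks, and Hoxa11, Hoxa13 and Hoxb13 to 0.0314, 0.13 and 0.50 between 15 and 9 weeks. The smooth muscle difference at 9 weeks (0.04) ran from -0.30 to 0.78 with 1 library left out. Why these values moved was not tested. Low counts limit the HoxD members most, since 1 library's 0 can be up to 0.205 CPM.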
